A study of Rattus norvegicus with 6 samples.

Results

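Messenger RNA of the translation initiation and elongation factors was measured in rat pancreatic beta cells after free feeding and after a 24 h fast. A gene was counted as a factor if its platform symbol began with Eif1 to Eif6 or with Eef1 or Eef2. The kinases of eIF2 and eEF2 and the eIF4E-binding proteins were left out. Of the probe sets (sets of short probes that read a transcript together) that carried a single gene symbol, 81 belonged to such genes, and the brightest probe set over the 6 arrays was taken for each gene. This gave 52 factors among 14217 genes, of which 51 had a mean intensity above that of the median probe set. The remaining one was the methyltransferase gene Eef1akmt4. The beta cells were sorted by flow cytometry from 10-week-old male Wistar rats, either fed ad libitum (3 isolates) or fasted for 24 h (3 isolates). No genetic change and no drug was involved. Each isolate was made from a pool of 5 rats and hybridized on 1 array, the cells were snap frozen right after sorting, and the RNA of all isolates was extracted together. The labels give a purity of 92 ± 3% insulin-positive cells. In such bulk samples, fewer cells of a type and less RNA per cell cannot be told apart.

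Initiation factors bring the ribosome to the start codon, and elongation factors carry it along the message. eIF2 brings the initiator tRNA and is recharged by the exchange factor eIF2B, eIF3 is the large scaffold on the small ribosomal subunit, and eIF4E, eIF4G and eIF4A bind the cap, bridge it to eIF3 and unwind the leader of the message. eEF1A delivers aminoacyl-tRNA and eEF2 moves the ribosome by a codon. Beta cells devote much of their protein synthesis to proinsulin, and control of eIF2 by the kinase PERK is known to be needed for their function.

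The arrays carried beta cell markers at summed intensities of 23603 to 24768 in the fed and 22725 to 24166 in the fasted samples. Of 9 listed markers 7 were measured, and none passed the thresholds for a change given below. Markers of acinar cells, the enzyme-producing cells of the exocrine pancreas, were also bright on every array. They summed to 55265 to 59061 in the fed and 51696 to 58184 in the fasted samples (10 of 12 measured, none past those thresholds). The sums cover different numbers of markers, and no probe set exceeded 7629, so they do not compare cell types. For its human arrays, the paper proposes that very abundant messages saturate the probes. For such messages an unchanged signal need not mean an unchanged level. The duct markers summed to 318 to 384 in the fed and 411 to 495 in the fasted samples, and 1 of the 3 measured rose. Alpha cell markers summed to 3561 to 7770 in the fed and 5051 to 5834 in the fasted samples (3 of 5 measured). None of them passed the thresholds, nor did any measured marker of delta (2), PP (1), endothelial (3), immune (4) or fibroblast cells (4). The part of other cell types in the results on translation factors was not tested. The median intensity of an array was 20.2 to 21.8 in the fed samples and 17.1, 17.8 and 21.0 in fasted replicates 1, 2 and 3, so that fasted replicate 1 was the dimmest. No array was rescaled beyond the authors' normalization. The median gene differed by -0.19 on the log2 scale (fasted over fed), for a reason that was not tested. Quantile normalization brought this median to -0.01, and upper-quartile scaling (each array set to a common 75th percentile) brought it to 0.03.

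Most translation factors were called in neither direction after the fast, by the rule that follows. A gene was called lower or higher if its fold was at least 1.5 and its unadjusted p under 0.05 (limma's moderated test on log2 intensities, two-sided). The thresholds are those of the study, which names no test for them and reported a smaller share of altered transcripts. By the limma rule 4 factors were lower after the fast, the scaffold genes Eif4g1 and Eif4g3, the helicase gene Eif4a1 and the subunit-joining GTPase gene Eif5b. The 4 made up 7.69% of the factors, against 9.51% of all genes and 11.2% of the genes brighter than the median probe set. One factor, the eIF3 subunit gene Eif3f, was higher, which is 1.92% of the factors against 2.29% of all genes and 1.57% of the bright ones. The other 47 factors passed in neither direction. At unadjusted p under 0.05 alone there were 11 factors, 8 lower and 3 higher. They made up 21.2% of the factors, against 18.5% of all genes and 23.1% of the bright ones.

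After Benjamini-Hochberg adjustment over 31042 probe sets by limma, 0 factors passed, and neither did any other gene (0% of all genes). The smallest adjusted p of any probe set was 0.155, which Eif4g1 shared with others, 93 probe sets in all. Without regard to size, all 3 fasted arrays lay below all 3 fed arrays for 11 factors. The same held for 21.2% of all genes and 27.4% of the bright ones. All 3 lay above for 3 factors, and for 5.76% of all genes and 5.73% of the bright ones. The shares of the factors, 21.2% and 5.77%, were thus close to those of all genes, and the counts are no result about the factors as a set. With 3 arrays against 3, no exact permutation p can be below 0.1. The limma p-values rest on the spread of each probe set, moderated by the spread estimated across all probe sets.

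The median log2 change of the 52 factors was -0.14, against -0.19 for all genes. Of the factors, 38 had a negative and 14 a positive value. That split depended on scaling, with 25 negative after quantile normalization and 18 after upper-quartile scaling, at medians of 0.01 and 0.10. The calls changed less, with 3 factors lower and 2 higher under either setting. In all genes 5.13% were lower and 4% higher after quantile normalization, and 4.49% and 4.72% after upper-quartile scaling.

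**Figure D1:**
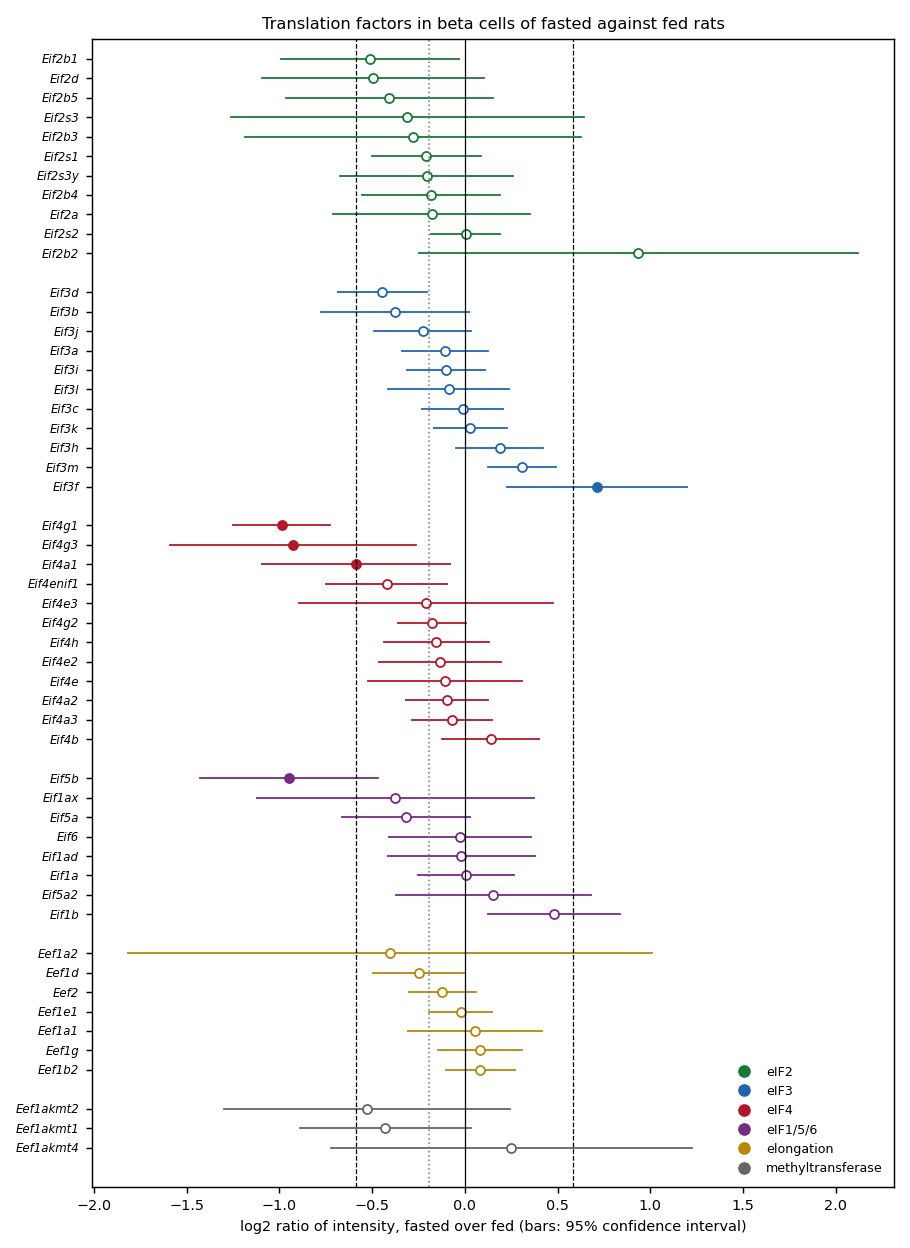
Log2 ratio of intensity, fasted over fed, for each of the 52 translation factors, by factor group, with 95% confidence intervals from limma (3 arrays per group). Filled points passed 1.5-fold (dashed lines) and unadjusted p under 0.05, as did 9.51% (lower) and 2.29% (higher) of all genes. The dotted line is the median of all genes at -0.19, and 3 of the 5 filled points are eIF4 genes.

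The start site of each gene was read from the RefSeq promoters of assembly GRCr8, which held 48 of the 52 factors. Many messages of the translation machinery begin with a C followed by a run of pyrimidines, the terminal oligopyrimidine tract, through which the kinase mTOR is known to control their translation. The 30 bases around the annotated start, 10 before it and 20 from it on, are shown for the genes that fell or rose and for the abundant elongation factor genes Eef1a1 and Eef1b2. Capitals mark a run of at least 5 pyrimidines that starts with C within 5 bases of the annotated start. The windows of Eif4g3, Eif5b and Eif4a1, at chr5:155481368-155481397 on the plus strand, chr9:47718696-47718725 on the plus strand and chr10:54888583-54888612 on the minus strand, held no such run.
Eif4g1 (fell; chr11:93746348-93746377, minus strand): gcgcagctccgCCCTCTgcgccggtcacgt
Eif4g3 (fell): cggccgtcctgccggactgctggaggcggc
Eif5b (fell): tgtgccctgtcccagtgcgcgggtctgtgg
Eif4a1 (fell): gcactccgccctagattctaaggatcatgt
Eif3f (rose; chr1:172369052-172369081, plus strand): cccttccgttctagCCTCTCTCTTTCTCgg
Eef1a1 (neither; chr8:88225050-88225079, minus strand): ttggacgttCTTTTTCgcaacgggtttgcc
Eef1b2 (neither; chr9:72074081-72074110, plus strand): ggccggtcccggCCCTTTTTCTCCCTCagc

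Of the 12 eIF4 genes, which serve the cap and the leader of the message, 3 were lower and none higher, where 9.51% and 2.29% of all genes were. Of the 12 log2 changes 11 were negative (median -0.17), as were 9521 of the 14217 genes, but only 7 with quantile normalization (median -0.04) and 4 with upper-quartile scaling (median 0.08). Eif4g1, the main scaffold that joins eIF4E, eIF4A and eIF3, had intensities of 314, 275 and 331 in fed replicates 1 to 3 and of 143, 160 and 160.4 in the fasted ones. All fasted samples lay at about the same level, well below the lowest fed one. The mean went from 307 ± 28.8 (SD, n = 3) to 154 ± 9.84 (SD, n = 3), a log2 change of -0.99 (SE 0.11; unadjusted p = 7.9e-05, adjusted p = 0.155 in limma). It had the smallest p of the factors, and remained past the thresholds without any 1 of the 6 arrays.

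Eif4g3, a second scaffold gene of the same family, had intensities of 117, 108 and 124 in the fed and 40.1, 79.9 and 70.9 in the fasted samples. Fasted replicate 1 was the lowest, and the other fasted samples also lay below every fed one. The log2 change was -0.93 (SE 0.27; unadjusted p = 0.0138, adjusted p = 0.265), and -0.62 without fasted replicate 1. Eif4g2, whose product resembles the other scaffolds but lacks the site for eIF4E, was bright, at 2201, 1918 and 2086 in the fed and 1812, 1796 and 1869.95 in the fasted samples. The groups did not overlap, yet the log2 change was only -0.18 (unadjusted p = 0.0545), close to that of the median gene. The log2 changes of the other 2 scaffold genes were beyond it under all 3 scalings, at -0.85 and -0.71 after quantile normalization and -0.74 and -0.68 after upper-quartile scaling.

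Eif4a1, the helicase of the cap-binding complex, had intensities of 771, 682 and 704 in the fed and 343, 543 and 587 in the fasted samples. Its log2 change of -0.59 (SE 0.21; unadjusted p = 0.0291, adjusted p = 0.294) stood just past the 1.5-fold line, which is 0.58 on this scale. Fasted replicate 1 was far below the other fasted samples, and without it the change was -0.35 and no longer passed. It did not pass either after quantile normalization (-0.45) or upper-quartile scaling (-0.34), when a pseudocount replaced the floor or the intensity trend was left out, when linear means were compared with unequal variances, or without any 1 of the fed samples. Eif4a2, the closely related helicase gene, was at 2631, 2617 and 2609 in the fed and 2176, 2658 and 2549.68 in the fasted samples, which overlapped (log2 change -0.09, 95% interval -0.32 to 0.13). Eif4a3, a helicase of the exon junction complex, changed by -0.07 on the log2 scale without passing the test.

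Among the cap-binding genes, Eif4e itself was at 451, 465 and 429 in the fed and 318, 476 and 476 in the fasted samples. Apart from fasted replicate 1 it was thus level with the fed samples, and its log2 change was -0.11 (95% interval -0.52 to 0.31). Eif4e2 and Eif4e3, relatives of eIF4E, had values of -0.14 and -0.21 with overlapping groups. Eif4enif1, which encodes a carrier of eIF4E to the nucleus and to processing bodies, had 82.97, 88.0 and 78.7 in the fed and 63.0, 56.5 and 67.1 in the fasted samples. Its groups did not overlap and its unadjusted p was 0.0194, but its log2 change of -0.42 was under 1.5-fold. After quantile normalization or upper-quartile scaling that change was -0.18, with an unadjusted limma p above 0.05 each time. The helicase cofactor genes Eif4b and Eif4h had log2 changes of 0.14 and -0.15 and passed in neither direction. Within the eIF4 genes, 5 of 12 had fasted arrays all below the fed ones, as had 21.2% of all genes and 27.4% of the bright ones.

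**Figure D2:**
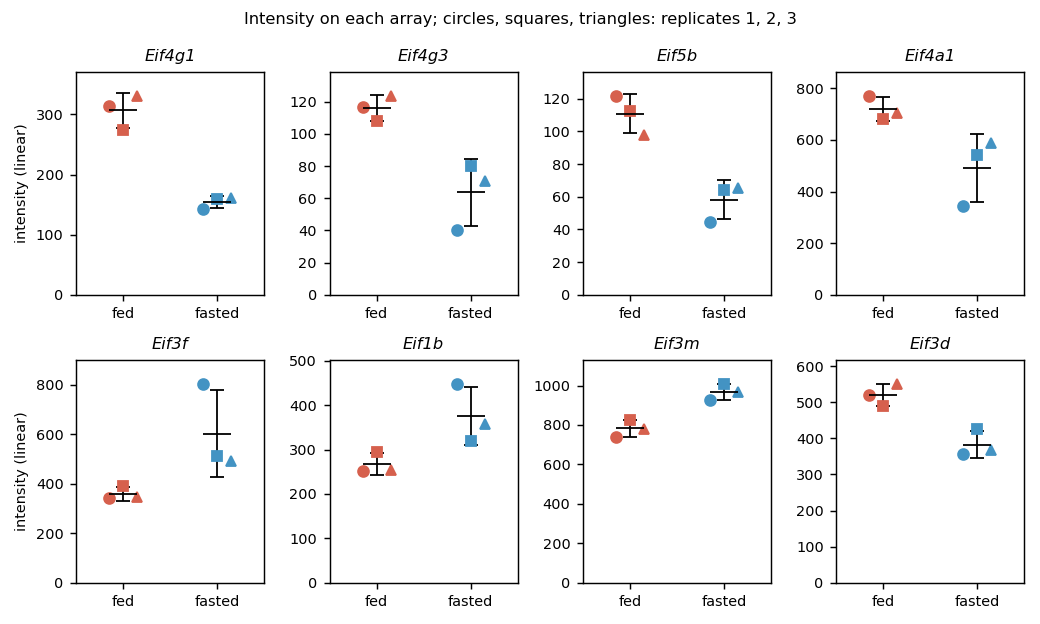
Linear intensity of 8 factor genes on each array, with group mean and SD (n = 3); circles, squares and triangles are replicates 1, 2 and 3. The groups do not overlap in any panel, and fasted replicate 1 is the lowest array for Eif4g1, Eif4g3, Eif5b and Eif4a1 and the highest for Eif3f and Eif1b.

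The 8 genes with symbols that begin with Eif1, Eif5 or Eif6, a group without Eif5 itself, had a median log2 change of -0.02. Of these, 1 was lower and none higher, where 9.51% and 2.29% of all genes were. Eif5b, the GTPase that joins the large ribosomal subunit at the end of initiation, was at 122, 112 and 98.0 in the fed and 44.3, 64.3 and 65.7 in the fasted samples. No fasted sample reached the lowest fed one. The log2 change was -0.95 (SE 0.20; unadjusted p = 0.00279, adjusted p = 0.192), and -0.76 without fasted replicate 1. The value was -0.73 with quantile normalization and -0.70 with upper-quartile scaling, past both thresholds each time.

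Eif1b, a close relative of the start-codon fidelity factor eIF1, went the other way, with 252, 295 and 254 in the fed and 448, 320 and 358 in the fasted samples. The groups did not overlap, and the highest value was that of fasted replicate 1. The log2 change of 0.48 (unadjusted p = 0.0157, adjusted p = 0.271) was under 1.5-fold, but it passed as 0.60 after quantile normalization and as 0.72 after upper-quartile scaling. Eif5a, whose hypusine-carrying product helps the ribosome past stalls, was at 1646, 1557 and 1644 in the fed and 1056, 1328 and 1549 in the fasted samples. These groups lay close but apart, at a log2 change of -0.32 (unadjusted p = 0.0658). Eif1a, Eif1ad and Eif6, the last of which keeps the subunits apart, stayed between -0.03 and 0.01. Eif1ax had -0.38 and Eif5a2 had 0.15, both with overlapping groups.

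The 11 eIF3 genes were split in direction, with 1 higher and none lower, where 2.29% and 9.51% of all genes were. Eif3f, which encodes an MPN-domain subunit of the eIF3 core, was at 341, 391 and 347 in the fed and 804, 513 and 489.9 in the fasted samples. Every fasted sample was above every fed one, and fasted replicate 1, which was low for most factors, was the highest. The log2 change was 0.71 (SE 0.20; unadjusted p = 0.0114, adjusted p = 0.254). Without fasted replicate 1 it was 0.48 (unadjusted p = 0.00234), which is under 1.5-fold. The call was also lost when linear means were compared with unequal variances.

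Eif3m, which encodes a PCI-domain subunit of the same core, was at 741, 826 and 779 in the fed and 927, 1009 and 968 in the fasted samples. The groups did not overlap and the spread was small, at a log2 change of 0.31 (SE 0.08; unadjusted p = 0.00599, adjusted p = 0.219), short of 1.5-fold. Eif3d, whose product can itself bind the cap, had 519, 489.8 and 551 in the fed and 357, 425 and 367 in the fasted samples. Here the fasted samples were the lower ones, with a log2 change of -0.44 (SE 0.10; unadjusted p = 0.00364, adjusted p = 0.199), again short of 1.5-fold. The change was -0.32 after quantile normalization (unadjusted p = 0.0112 in limma) and -0.20 after upper-quartile scaling (unadjusted p = 0.175 in limma).

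The core scaffold genes Eif3a, Eif3b and Eif3c had log2 changes of -0.11, -0.37 and -0.01, with overlapping groups. Eif3c was at 878, 748 and 812 in the fed and 821, 841 and 752 in the fasted samples. Eif3j, the loosely bound subunit that helps recruit eIF3 to the ribosome, had non-overlapping groups at -0.23. The remaining Eif3h, Eif3i, Eif3k and Eif3l lay between -0.10 and 0.19 and passed in neither direction. Eif3e is not among the 11 genes, since its probe set also carried the symbol Eif3el1. That probe set had every fasted array above every fed one. Its log2 change of 0.38 (unadjusted p = 0.00517 in limma) was short of 1.5-fold. The median of the eIF3 genes was -0.09, and 7 of 11 values were negative, but only 3 after quantile normalization.

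Of the 11 eIF2 genes, none was called in either direction, where 9.51% of all genes were lower and 2.29% higher. The median log2 change was -0.21, but -0.08 with quantile normalization and 0.04 with upper-quartile scaling. Eif2s1 encodes the alpha subunit, the target of the stress kinases, and was at 335, 316 and 343 in the fed and 249, 332 and 285 in the fasted samples, which overlapped (log2 change -0.21, 95% interval -0.50 to 0.09). Eif2s2, the beta subunit gene, was at 1010.4, 994 and 999 in the fed and 923, 1054 and 1043 in the fasted samples. It thus differed by less than the spread between replicates (0.00, 95% interval -0.18 to 0.19). Eif2s3, the gamma subunit gene, had 149, 154 and 157 in the fed but 64.0, 170 and 174 in the fasted samples. Its log2 change of -0.31 came from fasted replicate 1 alone, and without it the value was 0.17. Eif2s3y, the copy of that gene on the Y chromosome, behaved alike, with -0.21 and 0.02.

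The exchange factor eIF2B has 5 subunits, all of which were measured. Eif2b1, the alpha subunit gene, was at 115, 97.3 and 103 in the fed and 56.0, 80.9 and 87.1 in the fasted samples. All fasted samples lay below the fed ones, with a log2 change of -0.51 (unadjusted p = 0.0396, adjusted p = 0.316), short of 1.5-fold. That change was -0.28 after quantile normalization and -0.27 after upper-quartile scaling, with an unadjusted limma p above 0.05 each time. Eif2b2, the beta subunit gene, was at 59.6, 58.6 and 71.7 in the fed and 225, 139 and 56.1 in the fasted samples. Those fasted samples ran from below every fed one to far above, so the log2 change of 0.94 had an interval of -0.25 to 2.12 and did not pass. Eif2b3, Eif2b4 and Eif2b5 had -0.28, -0.18 and -0.41, with overlapping groups. Eif2d and Eif2a, factors that bring tRNA to the ribosome apart from eIF2, had -0.50 and -0.18, also with overlap.

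None of the 7 elongation factor genes was called, and none had groups that did not overlap. Of all genes, 9.51% were called lower and 2.29% higher, and 21.2% and 5.76% had groups apart in those directions. With 7 genes, the counts are no result about the group. Eef1a1, which encodes the carrier of aminoacyl-tRNA, was at 3668, 4016 and 3931 in the fed and 3224, 4767 and 4214 in the fasted samples. The fasted samples spanned the fed ones, and the log2 change was 0.05 (SE 0.15). Eef1b2 and Eef1g, subunit genes of its exchange factor, both had 0.08, with an interval of -0.10 to 0.27 for the first and -0.15 to 0.31 for the second. Eef1d, another exchange subunit gene, was at 413, 357 and 422 in the fed and 318, 362 and 322 in the fasted samples. It had a log2 change of -0.25 (unadjusted p = 0.0491, adjusted p = 0.334 in limma), which is short of 1.5-fold and was -0.13 after quantile normalization. Eef2, the translocase gene, was at 1665, 1452 and 1598 in the fed and 1426, 1442 and 1459.76 in the fasted samples, a log2 change of -0.12 (95% interval -0.30 to 0.06). In the fit without further scaling, the intervals of these abundant genes leave out a 1.5-fold change of intensity in either direction. After upper-quartile scaling the log2 changes were 0.30 for Eef1a1, 0.33 for Eef1b2 and 0.32 for Eef1g. They were -0.01 for Eef1d and 0.12 for Eef2, and no intervals are given for that scaling.

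Eef1e1, whose product sits in the complex of tRNA synthetases, had -0.02. Eef1a2, the form of eEF1A known from muscle and neurons, was uneven and not far above the median probe set in mean intensity. It was at 23.9, 58.7 and 14.6 in the fed and 29.5, 13.8 and 21.6 in the fasted samples, so that its interval ran from -1.82 to 1.01. Of the 3 genes of lysine methyltransferases of eEF1A, only Eef1akmt4 was below the median probe set. Eef1akmt1 had non-overlapping groups, at 63.4, 52.0 and 51.9 in the fed and 38.9, 37.2 and 48.6 in the fasted samples (log2 change -0.43, unadjusted p = 0.0631). Eef1akmt2 and Eef1akmt4 had -0.53 and 0.25, with overlap.

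The groups of factors differed most on 1 array. Relative to the mean of the 6 arrays, the median eIF2 gene stood at 0.12, 0.08 and 0.18 on the log2 scale in the fed and at -0.58, 0.10 and 0.12 in the fasted samples. The median eIF2 gene was thus within the range of the fed samples in fasted replicates 2 and 3 and low in fasted replicate 1. The eIF2B genes among them differed, with a median of 0.15, 0.03 and 0.23 in the fed and -0.60, -0.09 and -0.01 in the fasted samples, all 3 fasted arrays being below the fed ones. The median eIF3 gene stood at 0.09, -0.03 and 0.06 in the fed and 0.02, 0.04 and -0.04 in the fasted samples, with no array apart. The median eIF4 gene stood at 0.09, 0.15 and 0.08 in the fed and -0.25, -0.03 and -0.03 in the fasted samples. Of the eIF2, eIF3, eIF4 and elongation groups, only this one had every fasted array below every fed one. The median of all genes had the same order, which is thus not particular to eIF4 or eIF2B. It stood at 0.11, 0.09 and 0.09 in the fed and -0.23, -0.10 and 0.04 in the fasted samples. The median elongation factor gene stood at 0.01, 0.01 and -0.00 in the fed and -0.08, 0.00 and -0.02 in the fasted samples. These group medians share their arrays and are given as a description, with no test between the groups.

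Fasted replicate 1 was the lowest of the 6 arrays for 34 of the 52 factors (65.4%), against 42.6% of all genes and 50.7% of the bright ones. The share was 9 of 11 for eIF2, 4 of 11 for eIF3, 9 of 12 for eIF4 and 4 of 7 for the elongation factors. Without this array, 3 factors were lower (Eif4g1, Eif4g3 and Eif5b) and none higher, where 6.03% and 1.53% of all genes were. The median of the factors without fasted replicate 1 moved from -0.14 to -0.02, that of eIF2 to 0.02, that of eIF3 to -0.03, that of eIF4 to -0.11 and that of the elongation factors remained at -0.02, beside -0.13 for all genes. When fasted replicate 3 was left out instead, 7 factors were lower (Eef1akmt2, Eif2b1 and Eif2d besides the 4) and 2 higher (Eif3f and Eif2b2), where 18.7% and 4.94% of all genes were. Fasted replicate 1 was the dimmest array by its median intensity, and the part of this in the results was not tested.

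**Figure D3:**
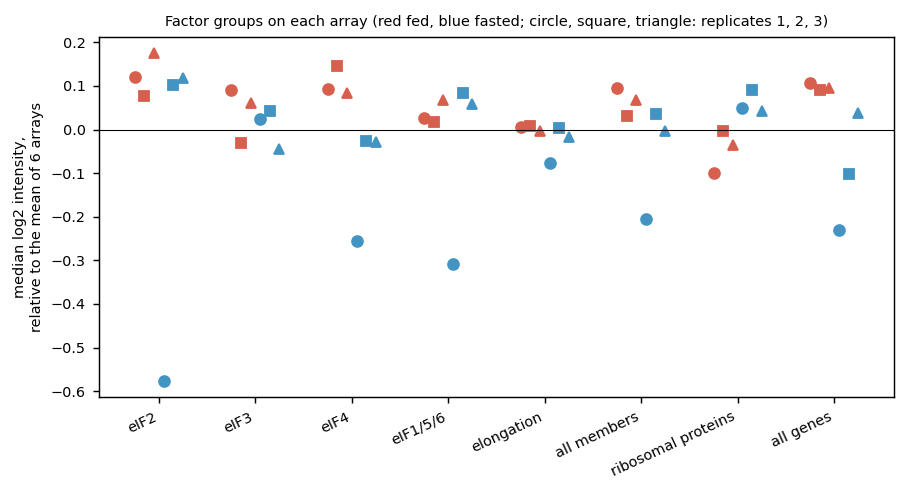
Median log2 intensity of each factor group on each array, relative to the mean of the 6 arrays for each gene; red symbols are fed and blue symbols fasted samples, and circles, squares and triangles are replicates 1, 2 and 3. Fasted replicate 1 stands at -0.58 for eIF2 and near the other arrays for eIF3 (0.02).

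For 22 factors more than 1 probe set was on the array. The direction was shared by all probe sets of 17 of these genes and differed for 5 (Eef1g, Eif1a, Eif3k, Eif4b and Eif4e), whose brightest probe set was within 0.14 of 0. For Eif5b all 3 probe sets were negative, at -0.95, -0.52 and -0.87 in order of brightness. For Eif4g1 the next brightest had -1.13, with 67.7, 60.4 and 64.2 in the fed and 12.8, 34.1 and 57.03 in the fasted samples, and the 2 dimmest had -0.10 and -0.43. The large change of Eif4g1 was therefore carried by the 2 brighter of its 4 probe sets, and the mean over all of them was -0.66 (unadjusted p = 0.0509), which no longer passed.

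For Eif4g3 the second probe set was near the floor on every array (1.00 to 4.93 as deposited) and showed no change that could be measured. Its mean over both was -0.50 and did not pass. A second probe set of Eif3a had -1.06, with 135, 136 and 127 in the fed and 20.6, 81.9 and 153 in the fasted samples, where the brightest one had -0.11. The fasted samples of that second probe set ran from far below to above the fed ones. A second probe set of Eif3h was also near the floor, with 2.63 to 4.36 in the fed and 5.70 to 17.1 in the fasted samples. It passed both thresholds, but 2 of its fed values were under the floor of 3.27, which sets the size of its fold, and the brightest probe set of the gene had 0.19. Which transcripts each probe set reads was not examined here.

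**Figure D4:**
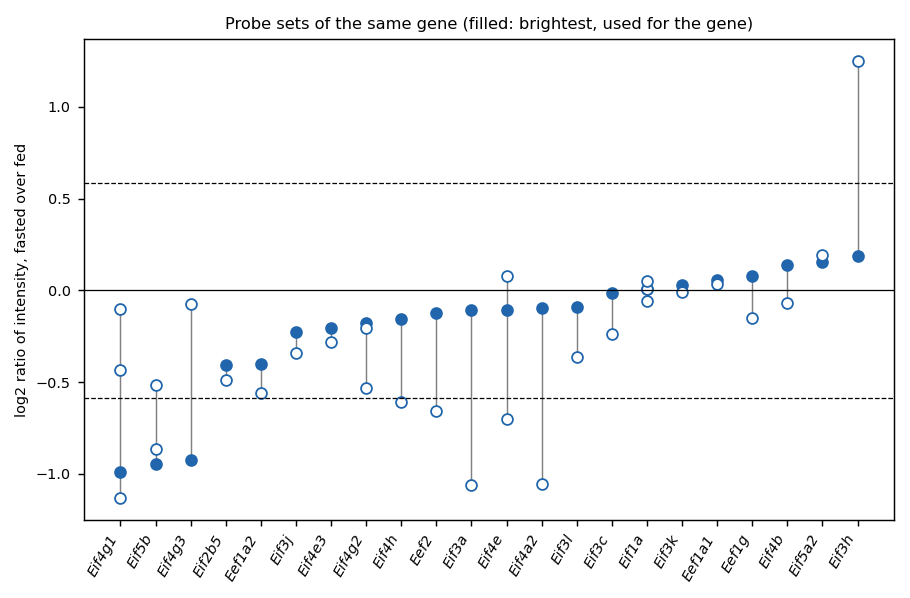
Log2 ratio, fasted over fed, of every probe set of the 22 factor genes with more than 1; the filled point is the brightest, which was used for the gene, and dashed lines mark 1.5-fold. The 4 probe sets of Eif4g1 range from -1.13 to -0.10, and the 3 of Eif5b all lie below 0.

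Of 37 other genes that act on or beside these factors, 33 were measured, with 5 lower (15.2%) and 1 higher (3.03%), against 9.51% and 2.29% of all genes. The median log2 change was -0.31, and it was -0.11 with quantile normalization and -0.06 with upper-quartile scaling. The gene that rose was Eif4ebp1, whose product holds eIF4E away from eIF4G until mTOR phosphorylates it. It was at 96.8, 98.1 and 97.1 in the fed and 226, 167 and 137 in the fasted samples. The fed samples were nearly equal and every fasted one was above them, with a log2 change of 0.83 (SE 0.19; unadjusted p = 0.00443, adjusted p = 0.208). It also passed after quantile normalization (1.01) and with upper-quartile scaling (1.07), but not when linear means were compared with unequal variances. Its relatives Eif4ebp2 and Eif4ebp3 had 0.11 and -0.28 and passed in neither direction.

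The genes that fell were Gspt2, a termination factor gene (-0.82), Eif2ak4, which encodes the amino acid-sensing eIF2 kinase GCN2 (-0.75), the helicase gene Dhx29 (-0.64), Paip2b, an inhibitor of poly(A)-binding protein (-0.80), and Rptor, the mTOR complex 1 adaptor gene (-0.76). Eif2ak4 was at 77.3, 85.2 and 68.8 in the fed and 39.8, 42.9 and 55.4 in the fasted samples, with no overlap. Only Paip2b of the 5 was still called after quantile normalization, and none after upper-quartile scaling. Without fasted replicate 1, Dhx29, Paip2b and Rptor were no longer called, at -0.48, -0.52 and -0.49. Paip2b was also lost without fed replicate 1 or 3, and Rptor without any 1 fed sample or fasted replicate 3. Abce1, the ribosome recycling factor gene, had -0.54 (unadjusted p = 0.00753), short of 1.5-fold. Eif2ak3, which encodes PERK, had -0.19, the same as the median gene. The 44 genes of cytosolic ribosomal proteins, which build the ribosome these factors act on, had a median of 0.10. Of the 44, 34 were positive, against 4696 of the 14217 genes, and none was called in either direction.

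The promoters from 250 bases before to 50 after the start were searched on both strands for 3 motifs. The E-box CACGTG was in 11 of the 48 factor promoters (22.9%), against 8.94% of the array genes with a promoter and 6.42% of all promoters. The ETS site CCGGAAG was in 16 (33.3%), against 15.1% and 8.75%. The cyclic AMP response element TGACGTCA was in 1, that of Eef2 (2.08%, against 2.85% and 1.83%). Both Eif4g1 and Eif3f had an E-box, although they moved in opposite directions, and Eif4g3, Eif5b and Eif4a1 had none of the 3 motifs.

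The pyrimidine run shown in capitals above was found at 13 of 48 starts (27.1%), against 17.1% of the array genes and 17% of all promoters. The median log2 change was -0.02 for the 13 with a run and -0.15 for the 35 without. The group with a run held Eif4g1, the factor with the lowest value, as well as Eif3f and Eif3m. The annotated start need not be the start used in beta cells. Bases before the marked C were not considered. A run that reached in from further upstream was thus counted from a C within 5 bases, as for Eef1akmt2 and Eef1e1. A run that lay wholly further away was not counted, and these shares describe the annotation only.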

How the data were processed

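The authors hybridized biotinylated cRNA of each isolate on an Affymetrix rat array and processed the scans with dChip's model-based method, taking the array of median intensity as the reference for normalization and the mismatch probes as background. They deposited linear intensity values for 31099 probe sets, 57 of them controls. The dChip version is not given in the sources used here, and raw scans and scan dates were not used. The number of arrays limits the precision.

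A floor was set at the 10th percentile (3.27), and limma 3.58.1 (R 4.3.3) was fitted to the log2 intensities of 31042 probe sets (eBayes with intensity trend, no block, two-sided, Benjamini-Hochberg adjustment). The fit was tested on simulated data. Probe sets were named from the platform annotation, and those with several symbols were left out, among them 5 that held a factor symbol. Eif3e and Eif5 were read only by such probe sets and are thus not among the 52 factors. All 52 factors matched the GRCr8 gene table by gene number, with 0 changed symbols. The labels put 3 samples in each of 2 groups, and 0 columns were unmatched. Means and SDs are of linear intensities.

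The factors, the other lists and the markers were chosen with earlier results of these data known. The rule for named factors took those past both thresholds and, in each factor group, the 2 brightest and the 2 with the largest absolute moderated t, and of the other pathway genes the 4 with the largest. The remaining factors and pathway genes are named to account for every factor, after their values were seen. Alternatives were quantile normalization, upper-quartile scaling (75th percentile), a higher floor (25th percentile, 7.53), a pseudocount, leaving out dim probe sets, no trend, robust variance, linear means with unequal variances, a block on the replicate number, averaging the probe sets of each gene, and omitting each array in turn. Plots used matplotlib 3.10.9 in Python 3.11.15.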

Additional observations from a re-analysis of the deposited data

How the results depend on the processing

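The 4 factors called lower became 2 when the probe sets of each gene were averaged (Eif4a1 and Eif5b) and 3 to 7 when 1 array was left out, the highest without fasted replicate 3. Eif4g1, Eif4g3 and Eif5b were called under every other alternative run. The 1 factor called higher became 2 with quantile normalization, upper-quartile scaling, a pseudocount, robust variance or averaged probe sets, and 0 with linear means and unequal variances; leaving out 1 array gave 0 (without fasted replicate 1) to 2 (without fasted replicate 2 or 3). The added factor was Eif1b under either scaling and without fasted replicate 2, Eif2b2 with a pseudocount or robust variance and without fasted replicate 3, and Eif3h with averaged probe sets. The count past the adjusted p, 0, became 1 (Eif4g1) with a pseudocount (limma adjusted p = 0.0319), with dim probe sets left out (0.0275) and with robust variance (0.0316), and was 0 whichever array was left out. The share of all genes past the adjusted p under those settings is not given here, so this count does not single out Eif4g1. Over all alternatives the smallest adjusted p of a factor ran from 0.0275 to 0.523. The median log2 change, -0.14, became 0.0094 with quantile normalization and 0.10 with upper-quartile scaling, and ran from -0.18 to -0.023 when 1 array was left out. The cause of these differences was not tested. With the replicate number as a block, 4 factors were lower, 1 higher and 0 past the adjusted p, the same as without the replicate block; same-numbered samples did not deviate together (r across probe sets 0.00, 0.01 and -0.05), so the numbers were not taken to pair the samples. Among 352 values of the named factors under alternatives, 13 lost the call, 6 gained it, 318 kept side and direction, and 15, all of uncalled factors, turned direction. With quantile normalization Eef2 went to 0.028 and Eif3c to 0.12, and with upper-quartile scaling Eif4g2 went to 0.066, Eif2s1 to 0.036, Eef2 to 0.12, Eif4a2 to 0.15 and Eif3c to 0.23. With 1 array left out, Eef1a1 ran from -0.070 to 0.21, Eif3c from -0.070 to 0.045, Eif2s2 from -0.030 to 0.066 and Eif1a from -0.084 to 0.082.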
